A study of Mus musculus with 6 samples.

Results

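The genes described here are 33 markers of macrophages and of leukocytes in general, followed in cultures of mesenchymal cells, the fibroblast and muscle-lineage cells that lie under the epithelium of the small intestine. They were taken as a fixed list of symbols, chosen with earlier results of these data known, out of 23329 genes with a row in the deposited count tables. Of the 33, 32 were found under their own symbol (Emr1 is the older name of Adgre1), and Spi1 was found under its older symbol Sfpi1, paired through RefSeq's synonyms. By role, 11 were grouped as pan-leukocyte genes, 11 are genes typical of tissue macrophages, 8 are receptors and lysosomal proteins of phagocytes, and 3 belong to antigen presentation on MHC class II. The pan-leukocyte label is loose, since the group includes genes of phagocytes such as Cybb.

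The study compared primary cultures from C57 mice by RNA-seq, 3 of them embryonic, taken at day 14.5 of gestation (E14.5), and 3 adult, with no age in the labels. All 6 cultures were grown from collagenase and dispase digests after the epithelium had been chelated away, kept in serum-containing medium with a ROCK inhibitor until confluent, and harvested at passage 2 to 3. Adult gut had its villi scraped off beforehand, whereas embryonic gut was cut into pieces. The labels name no sort that would remove leukocytes, do not say how many animals gave each culture, and record no genotype or treatment that differs between the groups.

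Macrophages are phagocytes that engulf dying cells and microbes, and the gut holds them in its mucosa and around the neurons and muscle of its wall. Before birth they derive from progenitors of the yolk sac and fetal liver, and in the adult mucosa blood monocytes largely replace them. Most depend on the receptor CSF1R, whose ligands CSF1 and IL-34 come from stromal cells, and on the transcription factor PU.1, the product of Spi1. In a bulk RNA sample, fewer cells of a type and less of their RNA per cell cannot be told apart.

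Promoter sequences are shown because PU.1, the product of a member, binds DNA at purine-rich sites around the letters GAGGAA. Any part of PU.1 in the levels given below was not tested. RefSeq's table for GRCm38.p6, the same assembly as mm10, held 24 of the 33 members with 29 start sites. Entries were not found for Cd52, Tyrobp, Spi1, Csf1r, Emr1, C1qa, Cd14, Cd74 and H2-Ab1. In the 250 bases before the start, searched on both strands, GAGGAA occurred in 12 of 24 members (50%), against 25.9% of the 27025 genes in the table. The longer GAGGAAGT, which contains it, occurred in 1 of 24 (C1qc, 4.17%), against 2.79% of all genes. These counts describe letters in a window and say nothing on binding. The 5 stretches below are those with a lone GAGGAA that begins 30 to 55 bases before the start, chosen after the matches were seen, and each is given in the direction of transcription with GAGGAA, or its reverse complement TTCCTC, in capitals.

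Cd53, chr3:106790150-106790399, minus strand: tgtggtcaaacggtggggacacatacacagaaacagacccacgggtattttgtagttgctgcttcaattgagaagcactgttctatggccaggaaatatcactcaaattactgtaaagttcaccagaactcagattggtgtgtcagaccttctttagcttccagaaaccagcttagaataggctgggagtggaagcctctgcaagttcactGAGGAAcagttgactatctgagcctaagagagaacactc

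Laptm5, chr4:130913066-130913315, plus strand: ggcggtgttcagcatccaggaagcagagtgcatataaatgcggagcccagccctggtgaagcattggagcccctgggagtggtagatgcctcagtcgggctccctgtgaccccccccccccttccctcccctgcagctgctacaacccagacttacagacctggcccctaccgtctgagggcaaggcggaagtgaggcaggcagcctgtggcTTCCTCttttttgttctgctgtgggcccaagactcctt

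C1qb, chr4:136886201-136886450, minus strand: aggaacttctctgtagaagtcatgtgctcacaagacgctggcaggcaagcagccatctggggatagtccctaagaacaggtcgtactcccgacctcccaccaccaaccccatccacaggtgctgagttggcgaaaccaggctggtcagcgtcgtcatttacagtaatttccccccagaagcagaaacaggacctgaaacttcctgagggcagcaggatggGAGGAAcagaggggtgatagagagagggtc

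Trem2, chr17:48346151-48346400, plus strand: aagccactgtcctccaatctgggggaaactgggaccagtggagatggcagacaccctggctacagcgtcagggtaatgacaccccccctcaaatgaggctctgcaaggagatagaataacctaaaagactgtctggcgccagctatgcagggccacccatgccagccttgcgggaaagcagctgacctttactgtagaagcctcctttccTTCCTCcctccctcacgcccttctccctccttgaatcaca

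Fcgr1, chr3:96293970-96294219, minus strand: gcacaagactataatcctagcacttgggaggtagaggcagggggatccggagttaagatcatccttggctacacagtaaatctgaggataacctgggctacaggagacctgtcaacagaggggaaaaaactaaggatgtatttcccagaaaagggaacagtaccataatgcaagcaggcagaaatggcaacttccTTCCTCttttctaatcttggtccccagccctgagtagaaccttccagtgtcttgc

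The match begins 39 bases before the start in Cd53, 38 in Laptm5, 30 in C1qb, 40 in Trem2 and 55 in Fcgr1. These 5 genes have different roles (a tetraspanin, a lysosomal membrane protein, a complement chain, a lipid receptor and an Fc receptor), and all were highest in the same library, as given below. Other members without these letters in the window, such as Mpeg1 and Cx3cr1, shared that pattern.

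Gene counts per library lay between 18850224 in adult replicate 2 and 32672370 in E14.5 replicate 1, and levels below are CPM (read counts relative to library size), with library sizes corrected by TMM, the trimmed mean of M values. An 11-gene mesenchyme list added up to 39864, 28750.2 and 36167 CPM in E14.5 cultures, against 36813, 21393 and 36827 CPM in adult cultures. Most of that sum came from Acta2 and Col1a1, and not every gene on the list was abundant. Pdgfra had 2.47, 3.85 and 4.45 CPM in E14.5 cultures, against 29.5, 81.0 and 31.7 CPM in adult cultures. Its log2 fold change was -3.72 (adjusted p = 0.0361 in edgeR's quasi-likelihood test). Values are given in the order of replicates 1, 2 and 3 within each group. Replicates were numbered in accession order, and the labels do not say whether cultures came from separate animals or litters, so p-values measure only the spread between these cultures. E14.5 replicate 3 stood apart from the other 5 libraries for the genes described here, and results are therefore also given without it.

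The 33 members together summed to 513, 838 and 5457 CPM in E14.5 cultures, against 298, 41.2 and 79.1 CPM in adult cultures. All 3 E14.5 cultures therefore lay above all 3 adult cultures, and cultures of a group differed widely. E14.5 replicate 3 had 10.6 times the sum of E14.5 replicate 1, adult replicate 1 had 7.22 times that of adult replicate 2, and E14.5 replicate 1 had 1.72 times that of adult replicate 1. The members took 0.580% of gene counts in E14.5 replicate 3 (95% Wilson interval 0.578% to 0.583%) and 0.00440% in adult replicate 2 (0.00411% to 0.00471%), intervals that cover counting error only. The ratio between these extremes of summed CPM was 132.

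**Figure D1:**
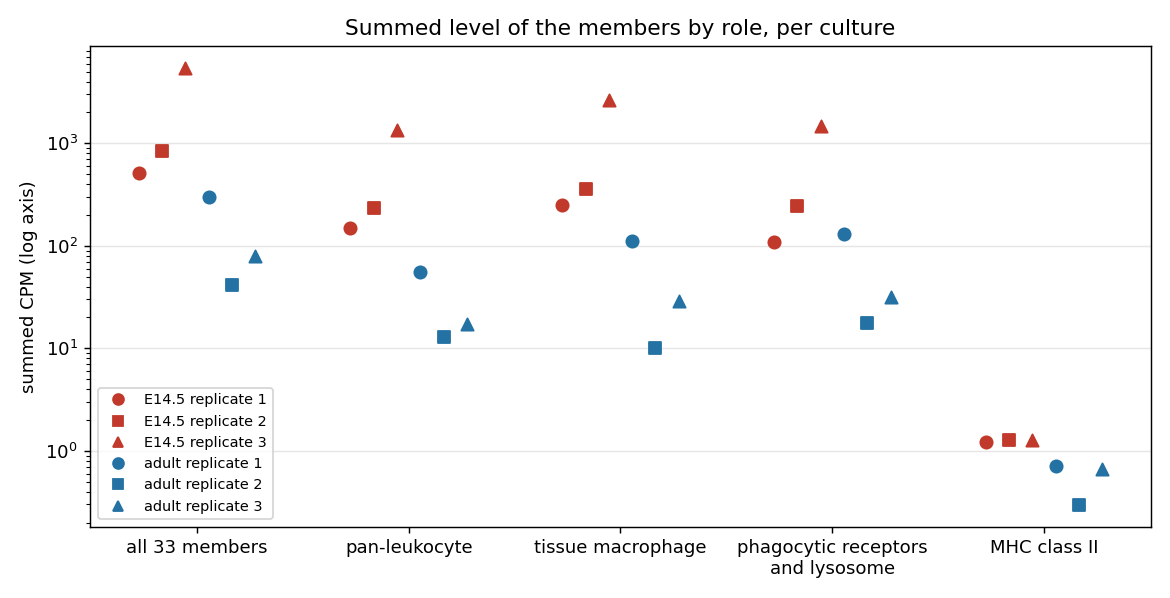
Summed CPM (log axis) of all 33 members and of each role group, 1 point per culture, E14.5 cultures in red left of adult cultures in blue, with marker shape for the replicate. The sum of all members is 5457 CPM in E14.5 replicate 3 and 41.2 CPM in adult replicate 2, while the MHC class II sum stays between 0.298 and 1.27 CPM in every culture.

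In the comparison of E14.5 with adult cultures, 30 of the 33 members had enough counts to be tested by edgeR's quasi-likelihood test over 13478 genes, and 0 passed an adjusted p of 0.05. Of all tested genes, 1.08% were called, 0.245% higher and 0.838% lower in E14.5. At an unadjusted p under 0.05, 28 members were higher in E14.5, against 8.64% of all tested genes. DESeq2 called 23 members higher, against 5.14% of the genes with an adjusted p, and limma-voom called 0, against 0.2%. DESeq2 gave no adjusted p for Cd52, Cx3cr1, Aif1 and Ctss, and that of Spi1 was 0.0519. The calls thus depended on the tool, while the median fitted value moved little. All 30 were positive, against 51.5% of all genes. Their median log2 fold change was 4.41 in edgeR, beside a median of 0.01 over all tested genes, 4.41 in DESeq2 and 4.16 in limma-voom. Single members moved more in limma-voom, such as Spi1 (5.35, against 4.58 in edgeR) and Cyth4 (2.97, against 3.74 in edgeR). The E14.5 libraries lay wholly above the adult libraries for 28 of the 30, against 12.1% of all tested genes. Members had to be detected to be tested, so these shares describe the 30 and not all 33. The list was also chosen with earlier results of these data known.

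The size of the difference moved most with 2 libraries. Without E14.5 replicate 3 the median was 2.62, with fitted values between 0.41 for Cd74 and 3.86 for Fcgr1 and adjusted p-values of 0.081 to 0.786 in edgeR, and 0 members were called, against 0.24% of genes called higher. Without adult replicate 1 the median was 5.78. Without E14.5 replicate 2, which raised the genes called higher to 1.39%, again 0 members were called. Dropping both E14.5 replicate 3 and adult replicate 2 gave a median of 2.22 and 0 member calls, against 0.0369% of genes called higher. Between libraries that share a title prefix, whose meaning the labels do not give, the median log2 difference was 1.12 for replicates 1, 4.77 for replicates 2 and 6.47 for replicates 3. Of the 30 tested members, 29 were higher in the E14.5 library of the replicate 1 pair and all 30 in each of the other 2 pairs, against 49.9%, 48.5% and 51.6% of all genes.

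**Figure D2:**
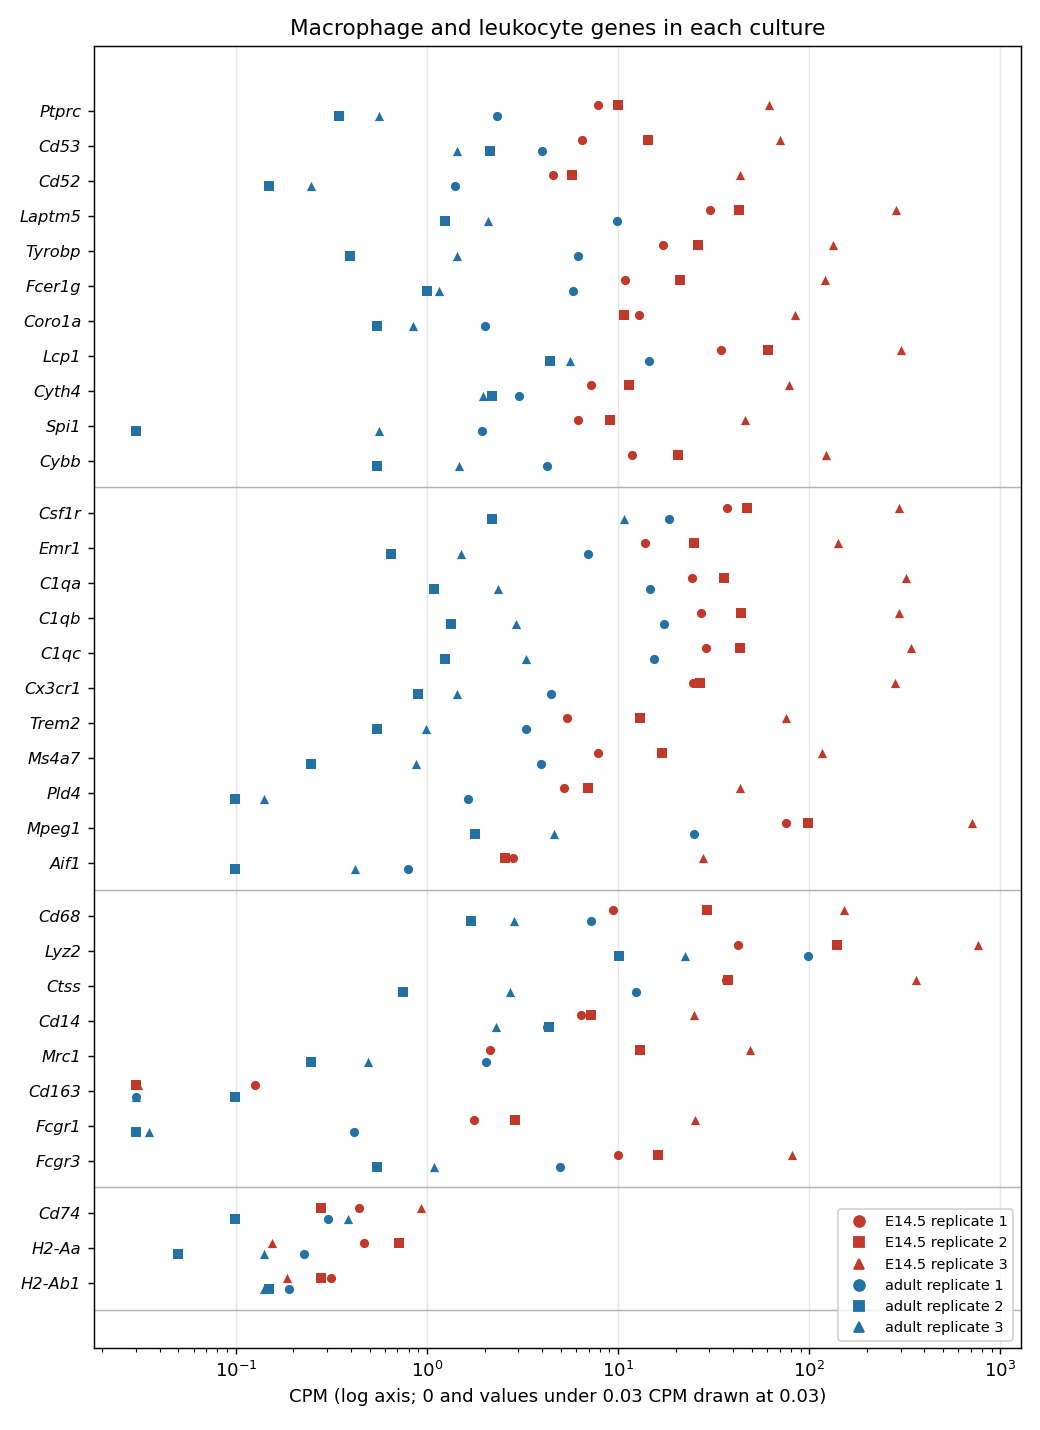
CPM (log axis) of each member in each culture, with E14.5 cultures in red above adult cultures in blue on each row and marker shape for the replicate. The E14.5 points lie to the right of the adult points for most members, with E14.5 replicate 3 farthest right, whereas Cd163 and the 3 MHC class II genes lie under 1 CPM in all cultures.

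Pan-leukocyte genes were at their highest in E14.5 replicate 3 and at their lowest in adult replicates 2 and 3. As a group they summed to 149.7, 232 and 1346 CPM in E14.5 cultures, against 55.2, 13.0 and 17.4 CPM in adult cultures, and the 11 had log2 fold changes of 3.58 to 4.96, with a median of 4.58. Ptprc, which encodes CD45, the surface phosphatase of all nucleated blood cells, had 7.82, 9.93 and 61.1 CPM in E14.5 cultures, against 2.31, 0.348 and 0.563 CPM in adult cultures, with a log2 fold change of 4.59 (SE 1.15, adjusted p = 0.124, edgeR). Its E14.5 cultures lay above all adult cultures, and adult replicate 1 was the highest of its group.

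Among the pan-leukocyte members, Lcp1 and Coro1a encode actin-binding proteins of the immune cell cortex. Lcp1, the gene for L-plastin, which bundles actin, had 34.5, 60.6 and 302 CPM in E14.5 cultures, against 14.5, 4.42 and 5.63 CPM in adult cultures. Coro1a, for coronin 1A, had 12.8, 10.7 and 83.7 CPM in E14.5 cultures, against 2.01, 0.546 and 0.844 CPM in adult cultures, with a log2 fold change of 4.96 (SE 1.06, adjusted p = 0.097, edgeR). That was the lowest adjusted p of any member, and Coro1a differed from most other members in that E14.5 replicate 1 was above E14.5 replicate 2. Cyth4, for cytohesin 4, an exchange factor for ARF GTPases, had 7.22, 11.4 and 77.9 CPM in E14.5 cultures, against 3.03, 2.19 and 1.97 CPM in adult cultures. Its adult cultures were closer together than those of any other pan-leukocyte member.

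Several of these genes encode membrane proteins that mark or regulate immune cells. Laptm5, for a lysosomal protein that dampens antigen-receptor signals, had 30.4, 42.7 and 286 CPM in E14.5 cultures, against 9.81, 1.24 and 2.07 CPM in adult cultures, a fitted 27.1-fold difference with an adjusted p of 0.134 in edgeR. The tetraspanin gene Cd53 had 6.44, 14.3 and 70.4 CPM in E14.5 cultures, against 4.01, 2.14 and 1.44 CPM in adult cultures. Cd52, for a small GPI-anchored glycoprotein, had 4.53, 5.74 and 43.5 CPM in E14.5 cultures, against 1.40, 0.149 and 0.246 CPM in adult cultures. Adult replicates 2 and 3 held only 3 and 7 counts of Cd52, whereas they held 43 and 41 counts of Cd53.

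Tyrobp and Fcer1g encode DAP12 and the common Fc receptor gamma chain, the adaptor proteins through which TREM2 and Fc receptors signal. Tyrobp had 17.1, 26.1 and 132 CPM in E14.5 cultures, against 6.13, 0.397 and 1.44 CPM in adult cultures. Fcer1g had 10.9, 21.2 and 121 CPM in E14.5 cultures, against 5.83, 0.993 and 1.16 CPM in adult cultures. Both were 7.74 to 11.1 times as high in E14.5 replicate 3 as in E14.5 replicate 1, and in both the E14.5 and adult cultures did not overlap. Cybb, for the catalytic subunit of the phagocyte NADPH oxidase, had 11.9, 20.6 and 122 CPM in E14.5 cultures, against 4.24, 0.546 and 1.48 CPM in adult cultures.

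Spi1, the PU.1 gene, had 6.19, 9.09 and 46.1 CPM in E14.5 cultures, against 1.93, 0 and 0.563 CPM in adult cultures. It was not detected in adult replicate 2, the shallowest library, where a count of 0 allows up to 3 counts, or 0.149 CPM. The E14.5 cultures lay above the adult ones, with a log2 fold change of 4.58 (SE 1.35, adjusted p = 0.156, edgeR).

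Genes typical of tissue macrophages followed the same order of cultures. Their sum was 253, 359.6 and 2648 CPM in E14.5 cultures, against 112, 10.2 and 29.3 CPM in adult cultures, the widest span of the 4 role groups at 260 times between the highest and the lowest culture, and the 11 log2 fold changes lay between 3.59 and 5.59 with a median of 4.38. Csf1r, the receptor on which macrophages depend, had 37.1, 47.3 and 295 CPM in E14.5 cultures, against 18.4, 2.19 and 10.7 CPM in adult cultures. It had the smallest fitted difference of the 11, a log2 fold change of 3.59 (SE 1.11, adjusted p = 0.170, edgeR), and its level in adult replicate 3 was nearer to that in adult replicate 1 than for the other 10 members of the group. Emr1, which encodes F4/80, the classical surface marker of mouse macrophages, had 13.8, 24.9 and 142 CPM in E14.5 cultures, against 6.93, 0.646 and 1.51 CPM in adult cultures.

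The 3 chains of complement C1q are made mainly by macrophages and assemble into a single recognition molecule that tags dying cells and immune complexes. Their genes sit side by side on the minus strand of chromosome 4 in GENCODE M21 on mm10, C1qb from 136880129 to 136886187, C1qc from 136889804 to 136893065 and C1qa from 136895917 to 136898803. C1qa had 24.2, 36.0 and 321 CPM in E14.5 cultures, against 14.7, 1.09 and 2.36 CPM in adult cultures. C1qb had 27.1, 44.0 and 295 CPM in E14.5 cultures, against 17.5, 1.34 and 2.92 CPM in adult cultures. C1qc had 28.9, 43.2 and 341 CPM in E14.5 cultures, against 15.4, 1.24 and 3.30 CPM in adult cultures. The 3 genes thus kept nearly the same proportions to each other while the cultures differed widely, and their log2 fold changes were 4.38, 4.07 and 4.36 in that order, with adjusted p-values of 0.191, 0.193 and 0.175 in edgeR. Adult replicate 1 was close to E14.5 replicate 1 for these genes, which differed between that pair by only 0.63 to 0.90 on the log2 scale.

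Cx3cr1, the fractalkine receptor gene found on monocytes, microglia and resident gut macrophages, had 24.7, 26.9 and 280.1 CPM in E14.5 cultures, against 4.47, 0.894 and 1.44 CPM in adult cultures. It had the highest fitted difference of the macrophage group, 48.1-fold, with a log2 fold change of 5.59 (SE 1.32, adjusted p = 0.113, edgeR). Mpeg1, which encodes perforin-2, a pore-forming protein of phagocytes, had 75.8, 98.0 and 711 CPM in E14.5 cultures, against 24.8, 1.79 and 4.61 CPM in adult cultures. Adult replicate 1 was again the highest of its group for both genes.

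Trem2, a receptor for lipids and apoptotic cells that signals through DAP12, had 5.38, 13.0 and 75.8 CPM in E14.5 cultures, against 3.29, 0.546 and 0.984 CPM in adult cultures. Ms4a7, a four-transmembrane family member found in macrophages, had 7.82, 16.8 and 117 CPM in E14.5 cultures, against 3.94, 0.248 and 0.879 CPM in adult cultures. In both, the ratio of E14.5 replicate 3 to E14.5 replicate 1 was higher than for Ptprc (14.1 and 14.9, against 7.82). Pld4, for an endolysosomal nuclease of myeloid cells, had 5.19, 6.92 and 43.5 CPM in E14.5 cultures, against 1.63, 0.0993 and 0.141 CPM in adult cultures. Aif1, for the actin-associated protein IBA1, had 2.81, 2.54 and 27.6 CPM in E14.5 cultures, against 0.795, 0.0993 and 0.422 CPM in adult cultures. Aif1 and Pld4 had 2 counts each in adult replicate 2. No member of the macrophage group overlapped between E14.5 and adult cultures, where 12.1% of all tested genes had E14.5 wholly above. These members moved together through the same libraries.

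Phagocytic receptors and lysosomal proteins were the least uniform group, and the sum overlapped between the groups at 109, 245 and 1462 CPM in E14.5 cultures, against 129.9, 17.8 and 31.8 CPM in adult cultures. Lyz2 made up 98.7 of the 129.9 CPM in adult replicate 1. The gene encodes lysozyme M and had 42.5, 139 and 766 CPM in E14.5 cultures, against 98.7, 10.1 and 22.4 CPM in adult cultures. Adult replicate 1 was above E14.5 replicate 1 for Lyz2, and that pair differed by -1.21 on the log2 scale, the only negative value among the 30 tested members in any of the 3 pairs. Its fit gave a log2 fold change of 2.85 (SE 1.29, adjusted p = 0.321, edgeR). Lyz2 has a near-identical neighbour, Lyz1, which had 1, 2 and 14 counts in E14.5 cultures, against 3, 0 and 1 counts in adult cultures. The deposited tables give multimapping reads a row of their own, so reads common to close copies may be missing from both genes.

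Ctss, for the lysosomal protease cathepsin S, had 36.6, 37.4 and 363 CPM in E14.5 cultures, against 12.4, 0.745 and 2.71 CPM in adult cultures. Cd68, for a lysosomal glycoprotein of phagocytes, had 9.44, 29.2 and 153 CPM in E14.5 cultures, against 7.23, 1.69 and 2.85 CPM in adult cultures. Cathepsin S was nearly equal in E14.5 replicates 1 and 2, whereas Cd68 was well above replicate 1 in replicate 2. Mrc1, for the mannose receptor CD206, had 2.13, 13.1 and 49.1 CPM in E14.5 cultures, against 2.04, 0.248 and 0.492 CPM in adult cultures. Mrc1 in E14.5 replicate 1 was only 0.06 (log2) above adult replicate 1, and E14.5 replicate 3 was 23.1 times as high as E14.5 replicate 1.

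The list holds a pair of the Fc receptors for IgG. Fcgr1, the high-affinity receptor, had 1.75, 2.89 and 25.2 CPM in E14.5 cultures, against 0.416, 0 and 0.0352 CPM in adult cultures, and its fitted log2 fold change of 5.95 (SE 1.60) was the highest of all members but rests on 11, 0 and 1 counts in adult cultures (adjusted p = 0.138, edgeR). Fcgr3, a low-affinity receptor, had 9.94, 16.2 and 80.9 CPM in E14.5 cultures, against 4.96, 0.546 and 1.09 CPM in adult cultures. Its E14.5 cultures lay above all adult cultures. The close relatives Fcgr2b and Fcgr4, outside the 33, overlapped between the groups. Fcgr2b had 0.719, 4.56 and 18.8 CPM in E14.5 cultures, against 0.757, 0.0497 and 0.281 CPM in adult cultures. Fcgr4 had 0.563, 2.45 and 8.10 CPM in E14.5 cultures, against 1.29, 0.199 and 0.527 CPM in adult cultures.

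Cd14, the co-receptor for bacterial lipopolysaccharide, had 6.41, 7.17 and 24.9 CPM in E14.5 cultures, against 4.24, 4.32 and 2.29 CPM in adult cultures. It had the second-smallest fitted difference of the tested members, a log2 fold change of 1.83 (SE 0.62, adjusted p = 0.198, edgeR), and in adult replicate 2, where pan-leukocyte genes were lowest, its level was 4.32 CPM against 4.24 CPM in adult replicate 1. Cd163, the haemoglobin scavenger receptor of many resident macrophages, had 4, 0 and 1 counts in E14.5 cultures, against 0, 2 and 0 counts in adult cultures and was too low to test.

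The MHC class II genes, which present peptides to CD4 T cells and mark many adult gut macrophages and dendritic cells, were near the limit of detection in every culture. Cd74, the invariant chain gene, had 14, 9 and 30 counts in E14.5 cultures, against 8, 2 and 11 counts in adult cultures. H2-Aa had 15, 23 and 5 counts in E14.5 cultures, against 6, 1 and 4 counts in adult cultures. H2-Ab1 had 10, 9 and 6 counts in E14.5 cultures, against 5, 3 and 4 counts in adult cultures. Together the class II genes reached 1.22, 1.27 and 1.27 CPM in E14.5 cultures, against 0.719, 0.298 and 0.668 CPM in adult cultures, so that E14.5 replicate 3 was 1.04 times as high as E14.5 replicate 1, where the pan-leukocyte sum was 8.99 times as high. Cd74 alone was tested and its groups overlapped, with a log2 fold change of 1.01 (SE 0.67, adjusted p = 0.509, edgeR).

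Ciita, the activator of class II transcription, had 1, 0 and 0 counts in E14.5 cultures, against 2, 0 and 0 counts in adult cultures. Of 7 other class II genes on a prepared list, 3 were tested, 0 passed edgeR's test and 2 had an unadjusted p under 0.05. Over all tested genes, 17.9% had such an unadjusted p in either direction. DESeq2 called 1 of the 3 higher, against 5.14% of genes. H2-DMb1, for a chain of the peptide-loading protein H2-M, had 2.63, 5.34 and 4.36 CPM in E14.5 cultures, against 19.3, 8.74 and 16.5 CPM in adult cultures, lower in all 3 E14.5 cultures. Its partner H2-DMa had 7.38, 10.9 and 7.60 CPM in E14.5 cultures, against 5.11, 4.57 and 3.52 CPM in adult cultures, higher in all 3 E14.5 cultures. Neither passed the test over all genes, at adjusted p-values of 0.097 and 0.145 in edgeR.

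**Figure D3:**
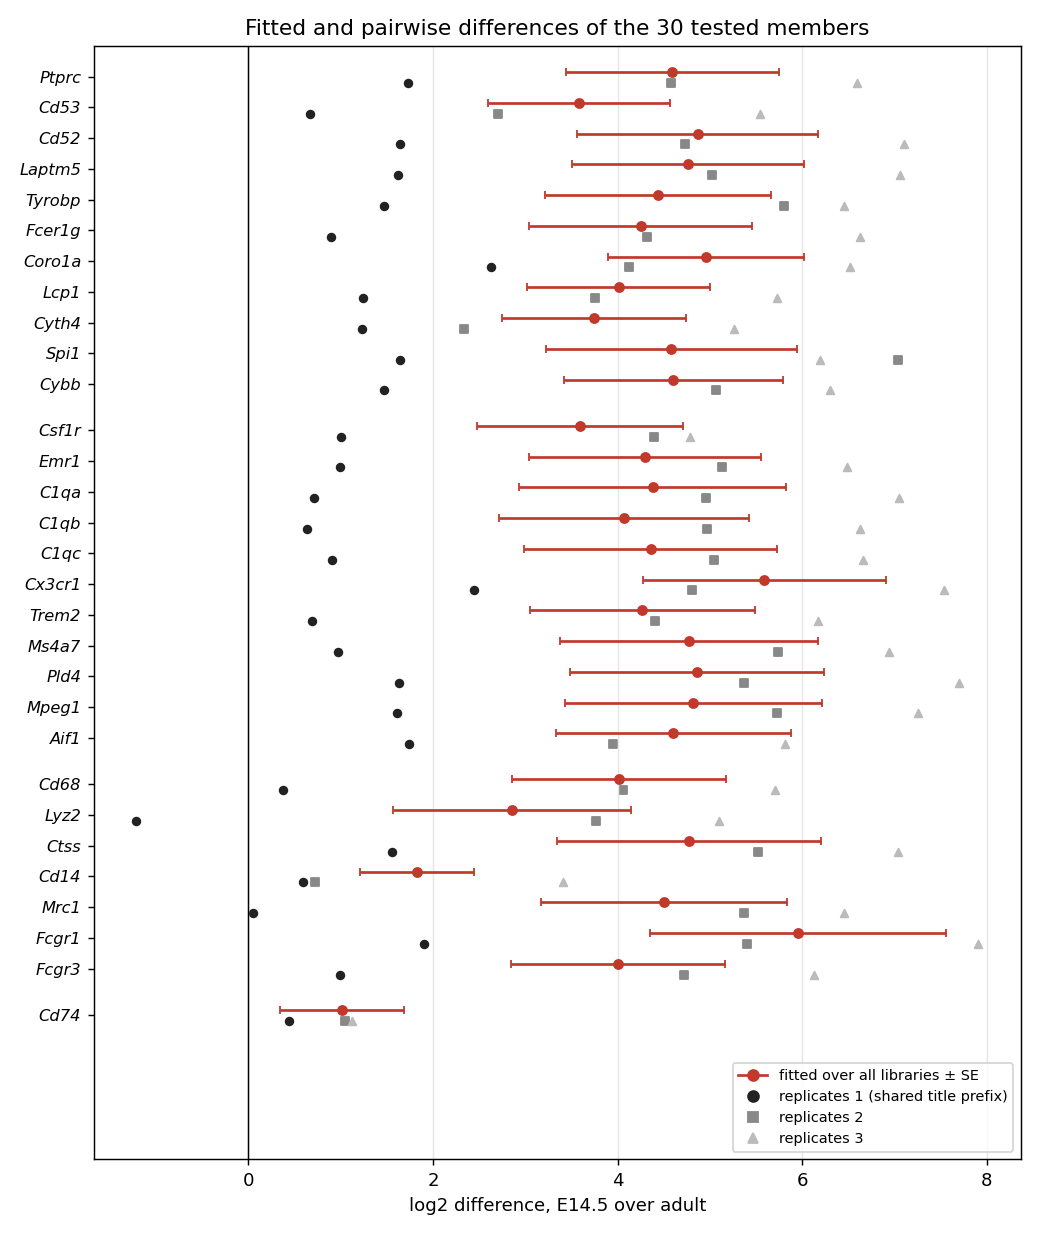
Log2 difference of E14.5 over adult for the 30 tested members, with the value fitted over all 6 libraries and its SE in red, and the differences between the 3 pairs of libraries with a shared title prefix in black to light grey. All fitted values are positive, the replicate 1 pair lies nearest to 0 with a median of 1.12, and Lyz2 falls below 0 in that pair.

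To see whether the members kept their proportions, each was set against the mean log2 CPM of the 11 pan-leukocyte members in its own library. Over the 3 E14.5 cultures, the span of this relative level was under 0.5 (log2) for 16 of the 30 tested members and under 1 for 25, with a median of 0.39, although the pan-leukocyte sum itself differed 8.99 times between these cultures. The 5 members at 1 or above were Cd68, Lyz2, Cd14, Mrc1 and Cd74. Cybb relative to the pan-leukocyte mean was 0.10, 0.31 and 0.29 in E14.5 cultures, against 0.11, -0.09 and 0.33 in adult cultures, the narrowest span over all 6 cultures. That ranking depends on a mean that includes Spi1, which had 0 counts in adult replicate 2. Fcgr3, outside the pan-leukocyte group, was -0.15, -0.04 and -0.30 in E14.5 cultures, against 0.34, -0.09 and -0.10 in adult cultures.

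Over all 6 cultures the span was under 1 for 10 members, with a median of 1.27. In the adult cultures, where totals were low, Lyz2 stood higher relative to the other genes (1.94, 3.06 and 2.94 in E14.5 cultures, against 4.65, 4.08 and 4.23 in adult cultures), and so did Cd14 (-0.79, -1.21 and -2.0 in E14.5 cultures, against 0.11, 2.85 and 0.95 in adult cultures). Csf1r reached 3.17 in adult replicate 3, against 1.51 to 1.74 in E14.5 cultures. Cd74, at 9 to 30 counts per E14.5 culture, had the widest span of the 30, with -4.60, -5.81 and -6.72 in E14.5 cultures, against -3.62, -2.37 and -1.56 in adult cultures. Members with 0 to 3 counts in a library, such as Spi1 and Fcgr1 in adult replicate 2, carry relative levels set largely by the prior count of 0.5. Since Spi1 is part of the mean, its value of -5.11 there lowers that mean. All relative levels in adult replicate 2 are raised by this, and spans over all 6 cultures shift with them. These spans are descriptions without a test, and the pan-leukocyte members are part of their own mean. That mean also includes phagocyte genes such as Cybb.

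**Figure D4:**
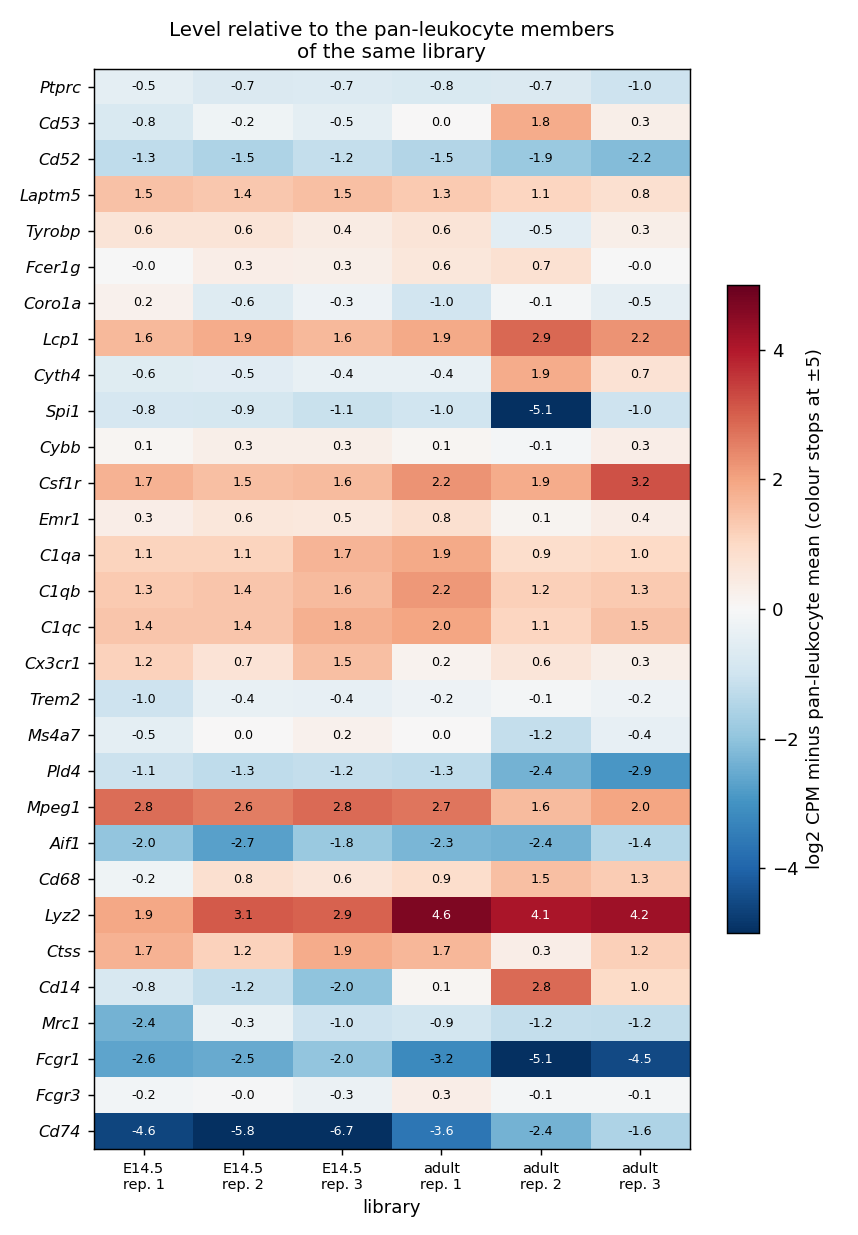
Log2 CPM of each tested member minus the mean of the 11 pan-leukocyte members of the same library, with E14.5 cultures left of adult cultures. The span over the E14.5 columns is under 1 for 25 of 30 rows and over all columns for 10, with Lyz2, Cd14, Cd74, Cd53 and Cyth4 among the rows that are higher in adult columns, and Spi1 in adult replicate 2 has 0 counts.

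Per length of merged exons in GENCODE M21, an annotation that may differ from the one used for counting, the most abundant members in E14.5 replicate 3 were Lyz2 at 582, C1qa at 308, C1qb at 271, Ctss at 267 and Tyrobp at 199 CPM per kilobase. Ptprc, with the longest merged exons, had 3.34 CPM per kilobase there, and the class II genes had 0.552 or less. Lyz2 was also the highest per length in the other 5 cultures. C1qa and C1qb followed each other closely in each E14.5 culture, at 23.3 and 24.9, 34.6 and 40.5, and 308 and 271 CPM per kilobase.

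Genes outside the 33 with the most similar profile were sought among all tested genes by the root mean square difference of centred log2 CPM from the mean pan-leukocyte profile over 6 libraries. The nearest 15 lay at 0.14 to 0.249 (log2), and 9 of them were on the prepared lists of further macrophage and pan-leukocyte genes. The closest was Fermt3, for kindlin-3, an integrin activator of blood cells, with 5.29, 8.29 and 47.3 CPM in E14.5 cultures, against 2.35, 0.348 and 0.668 CPM in adult cultures. Ptpn6, for the phosphatase SHP-1, Lcp2, for the adaptor SLP-76, Btk, for a cytoplasmic tyrosine kinase, and Itgal and Selplg, for adhesion molecules of leukocytes, followed with Cd180, Hpgds and Slc15a3. The 6 on no list were Lair1, Bcl2a1b, Cnr2, Arl11, Fgd2 and AF251705, of which Lair1 encodes an inhibitory collagen receptor and Cnr2 the cannabinoid receptor of immune cells. Log2 fold changes of the 15 were 4.16 to 5.36. The likeness over these same 6 libraries chose the genes and so set these values, which are a description with no test.

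Most further genes on the prepared macrophage and pan-leukocyte lists were also fitted higher in E14.5. Of 46 other macrophage genes 43 were tested, 42 were fitted higher in E14.5, the median of the 43 was 3.68 (log2), 36 had an unadjusted p under 0.05, and 1 was called higher by edgeR, against 30 by DESeq2. Over all tested genes these shares were 17.9% at an unadjusted p in either direction, 0.245% higher by edgeR and 5.14% higher by DESeq2. That gene was Mmp12, for macrophage metalloelastase, with 9.41, 14.3 and 17.9 CPM in E14.5 cultures, against 1.36, 0.397 and 0.457 CPM in adult cultures, and a log2 fold change of 4.21 (SE 0.58, adjusted p = 0.039). Its E14.5 cultures lay closer together than those of any of the 30 tested members. The genes with the most counts on that list were Ctsd and Ctsb, for lysosomal proteases that most cells make. Ctsd had 1719, 2444 and 3640.3 CPM in E14.5 cultures, against 1787, 1297 and 1447 CPM in adult cultures, with overlapping groups. Ctsb had 575, 932 and 2298 CPM in E14.5 cultures, against 743, 419 and 550.0 CPM in adult cultures, again with overlap.

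Of 33 other pan-leukocyte genes 32 were tested, 29 were fitted higher with a median of 4.15 (log2) over the 32, 25 had an unadjusted p under 0.05 and 0 were called by edgeR, against 22 by DESeq2, beside the shares over all genes just given. Arhgdib and Runx1, which had the most counts on the list, did not share the pattern. Arhgdib had 59.5, 154 and 119 CPM in E14.5 cultures, against 105, 162 and 131 CPM in adult cultures. Runx1, for a transcription factor of blood and other lineages, had 61.2, 45.2 and 42.9 CPM in E14.5 cultures, against 64.7, 23.8 and 54.4 CPM in adult cultures. Both overlapped between the groups.

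Markers of other blood lineages were near 0. T and NK cell markers added up to 1.81, 0.310 and 5.16 CPM in E14.5 cultures, against 0.719, 1.24 and 1.23 CPM in adult cultures, with 8 of 15 genes at 0 in every library, among them Cd3d, Cd3g, Cd2 and Cd8a. Of the 167 counts in E14.5 replicate 3, 111 were of Cd4, whose product also occurs on some macrophages. Of the 58 counts in E14.5 replicate 1, 44 were of Nkg7. It had 1.38, 0.0310 and 0.865 CPM in E14.5 cultures, against 0.492, 0.248 and 0.457 CPM in adult cultures. B and plasma cell markers lay at 0.248 to 0.494 CPM in E14.5 cultures, against 0.0379 to 0.141 CPM in adult cultures, with Pax5 and Blk at 0. Neutrophil markers reached 0.125 CPM at most in E14.5 cultures and 0.546 CPM in adult cultures, with S100a9, Ngp, Retnlg and Elane at 0. Erythroid markers stayed at or under 0.0625 CPM in E14.5 cultures and 0.809 CPM in adult cultures, with the globin rows at 0. As for Lyz1 and Lyz2, reads common to close globin copies may be missing from these rows, so their 0 counts do not show absence.

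Mast cell markers came to 3.10, 31.7 and 2.97 CPM in E14.5 cultures, against 16.7, 4.57 and 6.54 CPM in adult cultures, nearly all of it from Ms4a2, with Fcer1a, Mcpt4, Tpsb2 and Tpsab1 at 0. Dendritic cell markers came to 7.10, 10.1 and 13.7 CPM in E14.5 cultures, against 7.42, 5.46 and 7.0 CPM in adult cultures, nearly all of it from Zbtb46 and Itgax, with Cd209a at 0 and Flt3, Xcr1 and Clec9a at 0 to 2 counts per library. Itgax, for the integrin chain CD11c, which macrophages also carry, had 2.35, 0.776 and 9.95 CPM in E14.5 cultures, against 0.644, 0.199 and 0.0703 CPM in adult cultures. Apart from Ms4a2, Zbtb46, Itgax, Cd4 and Nkg7, the markers of these lineages were thus at or near 0 where macrophage genes were abundant.

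Other cell type markers also differed between these cultures, in other orders. Endothelial markers came to 159, 49.3 and 106 CPM in E14.5 cultures, against 240.1, 2553 and 740.4 CPM in adult cultures, highest where leukocyte genes were lowest. Mesothelial markers came to 164, 809 and 155 CPM in E14.5 cultures, against 1574, 669 and 825 CPM in adult cultures. Genes of S phase and mitosis came to 191, 109 and 463 CPM in E14.5 cultures, against 144, 398 and 208 CPM in adult cultures. They were highest in E14.5 replicate 3 and adult replicate 2, the libraries at the top and the bottom for leukocyte genes. The part of these differences in the levels of the 33 members was not tested.

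**Figure D5:**
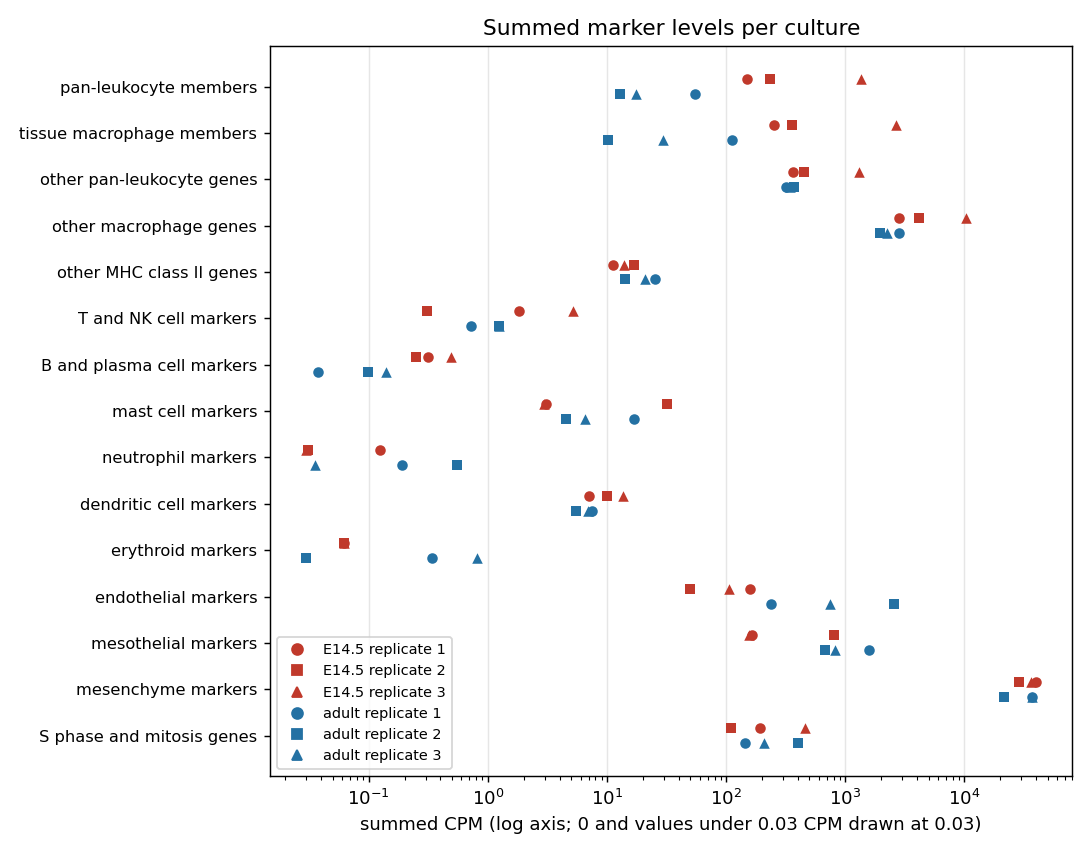
Summed CPM (log axis) of marker lists, 1 point per culture, with E14.5 cultures in red above adult cultures in blue and marker shape for the replicate. Leukocyte and macrophage sums order the cultures differently from endothelial, mesothelial and mesenchyme sums, and lymphoid, neutrophil and erythroid sums lie under 6 CPM.

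The stromal ligands of CSF1R did not follow the leukocyte genes. Csf1 had 611, 1936 and 415 CPM in E14.5 cultures, against 2515, 1876 and 2562 CPM in adult cultures, and among E14.5 cultures it was lowest in replicate 3, where the receptor gene Csf1r and the other macrophage genes were highest (log2 fold change -1.23, adjusted p = 0.34, edgeR). Il34 had 0.156, 0.310 and 0.309 CPM in E14.5 cultures, against 2.23, 2.98 and 2.29 CPM in adult cultures, with no overlap between the groups, and fell by 3.25 (log2) in E14.5 (adjusted p = 0.036 in edgeR, SE 0.42).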

How the data were processed

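Counts per gene were deposited for 6 libraries of cultured small intestinal mesenchymal cells, 3 E14.5 and 3 adult. Per the labels' protocols, poly(A) RNA was read from stranded libraries. Per the submitters' processing notes, STAR and mm10 were used, and for versions and annotation the sources used here give nothing. On shared reads they show only that multimapping reads have a row apart from the genes. The deposited whole-number counts come without normalization in 3 columns per table. The reverse-strand column was used, since the forward strand held 1.33% to 1.69% of stranded counts. Rows for reads not assigned to a gene held 17.45% to 19.81% of reads and were left out.

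In R 4.3.3, edgeR 4.0.16 (filterByExpr, TMM, robust quasi-likelihood test, Benjamini-Hochberg over 13478 genes, threshold 0.05) compared E14.5 with adult cultures, and adjusted p-values are from it unless another tool is named. SE is the fold change divided by the square root of F. Alternatives used DESeq2 1.42.0, limma 3.58.1 (voom), other scalings, filters and strands, the title prefix as a block, and left-out libraries. Only the main edgeR fit was run on simulated counts, in which replicates differed by depth and random spread alone. The alternatives were not tested in that way.

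The members, gene lists and tests were chosen with earlier results of these data known. Values are printed for members past the threshold or without overlap and for up to 5 of most counts per role, which covers nearly all. For other lists, the rule named genes past the threshold and the 2 with most counts, but not all of the latter are given. Further genes outside the 33 are named beyond this rule, some of them after the data were seen.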

Additional observations from a re-analysis of the deposited data

How the results depend on the processing

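All 17 alternatives kept every fitted member positive, with member medians (log2) from 2.22, when E14.5 replicate 3 and adult replicate 2 were dropped, to 5.78. Leaving out 1 library gave medians of 2.62 (E14.5 replicate 3) to 5.78 (adult replicate 1). No member was called in the 15 edgeR alternatives, in which 21 to 29 had an unadjusted p under 0.05 (of all genes, from 1539 of 13808 with adult replicate 3 dropped to 3188 of 13788 with E14.5 replicate 2 dropped, either direction), or in limma-voom, in which 10 had. DESeq2 called 23 members higher, and 1427 genes in all against 146 in edgeR, where the cause was not tested. Leaving out 1 library, edgeR called 3 genes (E14.5 replicate 1 or adult replicate 3 dropped), 38 (adult replicate 1), 46 (adult replicate 2), 111 (E14.5 replicate 3) or 471 (E14.5 replicate 2). Dropping both E14.5 replicate 3 and adult replicate 2 gave 36. Dropping both E14.5 replicate 3 and adult replicate 1, a fit chosen after seeing the data, gave 0, where 2230 genes had an unadjusted p under 0.05 and other tools were not run. These fits have fewer samples. Same-prefix libraries did not deviate together (correlations of -0.141, -0.229 and -0.0875 across genes). With so few libraries per group, these values cannot decide whether the prefix pairs them. With the prefix as a replicate block edgeR called 2 genes and 0 members, and no E14.5 library correlated best with the adult library of its own prefix. On library size alone, the MHC class II sum of E14.5 replicate 3 was 1.35 CPM, against 1.27 CPM with TMM. The other 59 of 60 rescaled sums moved by less than the spread between replicates. Depth limits the class II genes, Cd163 and the adult values of Spi1, Fcgr1, Pld4 and Aif1.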

Other observations

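Some values outside the 33 members stood out after the data were seen. Cd4 had 0, 0 and 111 counts in E14.5 cultures, against 3, 2 and 0 counts in adult cultures, while Cd3e had 0, 1 and 0 counts in E14.5 cultures, against 0, 0 and 0 counts in adult cultures. Apoe, a lipid carrier gene active in macrophages and other cells, had 153, 194 and 2124 CPM in E14.5 cultures, against 25.4, 81.9 and 36.6 CPM in adult cultures (log2 fold change 4.10, adjusted p = 0.156, edgeR). Gpnmb, for a glycoprotein of lipid-laden phagocytes, had 48.2, 123 and 613 CPM in E14.5 cultures, against 27.0, 23.5 and 26 CPM in adult cultures.

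Ms4a2, for the beta chain of the high-affinity IgE receptor, had 2.91, 31.4 and 2.90 CPM in E14.5 cultures, against 16.5, 4.37 and 6.47 CPM in adult cultures, whereas the mast cell protease gene Cpa3 had 0, 0 and 0 counts in E14.5 cultures, against 1, 2 and 2 counts in adult cultures. E14.5 replicate 2 and adult replicate 1 were highest for Ms4a2, and the same libraries were highest in their groups for the mesothelial gene Upk3b, with 37.9, 216 and 25.6 CPM in E14.5 cultures, against 577, 141 and 317 CPM in adult cultures. The same held for Msln, Upk1b, Wt1 and Bnc1 of the mesothelial list. Its genes Lrrn4, Gpm6a and Krt19 were instead highest in adult replicate 2 among adult cultures. A tie between Ms4a2 and mesothelial genes was not tested. Some other macrophage genes had few counts in all cultures. Folr2 had 3, 30 and 13 counts in E14.5 cultures, against 39, 3 and 19 counts in adult cultures. Timd4 had 0, 5 and 8 counts in E14.5 cultures, against 0, 0 and 0 counts in adult cultures. Ccr2, the chemokine receptor of inflammatory monocytes, had 1, 3 and 13 counts in E14.5 cultures, against 1, 0 and 0 counts in adult cultures.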
